A study of Mus musculus with 6 samples.

Results

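The keratin family was followed on Illumina bead arrays in malignant epithelial cells from a mouse pancreatic carcinoma that were exposed to a DNA demethylating drug. Its members were all probes whose name on the array is KRT followed by a digit, old names of the form KRT1- and KRT2- included, and keratin-associated protein probes (KRTAP) were left out. This gave 68 of the 45281 probes on the array, under 55 of its 30854 names. Of the 55 names, 47 are current RefSeq symbols, 7 are synonyms of a single gene and 1, KRT2-PS1, matched neither, so the 68 probes stand for 49 keratin genes and KRT2-PS1. The array names KRT1-12, KRT1-13, KRT1-2, KRT1-5, KRT2-1, KRT2-19 and KRT2-8 became Krt12, Krt13, Krt32, Krt36, Krt1, Krt81 and Krt8.

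All 6 samples came from a short-term explant culture of a single carcinoma from a mouse of the KPC-Brca1 genotype. The labels do not spell out the alleles behind that name, and both groups share them. The untreated group was 3 replicate plates without drug, and the DAC group was 3 replicates kept for 48 h in 0.5 µM 5-aza-dC (decitabine, DAC), a nucleoside drug that depletes active DNA methyltransferase in dividing cells. All 6 samples share a single culture, so every p-value rests on the spread between these replicates, which may be technical, and does not cover tumours or animals.

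Keratins are the intermediate filament proteins of epithelia. A filament is built from pairs of a type I and a type II keratin, so a cell needs at least a single member of each type, and the pair in use follows the kind of epithelium. Simple glandular and ductal epithelia, among them the pancreatic duct, carry KRT8 with KRT18 and often KRT7, KRT19 or KRT20. Stratified squamous epithelia carry KRT5 with KRT14 in the basal layer, KRT1 with KRT10 or KRT4 with KRT13 above it, and KRT6 with KRT16 and KRT17 in wounds and other hyperproliferative states. The inner root sheath and the shaft of hair have sets of their own. In the mouse, the type I genes lie together on chromosome 11, and the type II genes on chromosome 15 beside the type I gene Krt18.

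The ductal keratin genes were detected on all arrays and differed by -0.47 to 0.42 on the log2 scale, while 5 squamous keratin genes and 3 hair keratin genes rose with DAC. Of 19 keratin genes that could be measured, 8 rose and 1 fell, against 10.1% higher and 7.21% lower among all 14154 genes tested (limma, adjusted p under 0.05 after Benjamini-Hochberg adjustment over all genes). The genes that rose were the squamous keratin genes Krt16, Krt13, Krt17, Krt79 and Krt14 and the hair keratin genes Krt36, Krt27 and Krt33a. The gene that fell was the ductal Krt7. A gene counted as measured when a probe of it had a detection p under 0.05 on at least 3 of the 6 arrays. Krt14, Krt16, Krt17 and Krt27 passed that filter only through the DAC arrays, so they had to differ. Krt79 and Krt33a, detected on 1 and 2 untreated arrays, also needed the DAC arrays to pass. The count of 8 is therefore a description. Among 11 keratin genes detected on all 6 arrays 2 rose, Krt13 and Krt36, and 1 fell, Krt7, against 8.9% and 7.74% of all genes so detected. In the fit over probes in place of genes, 7 of 22 measured keratin probes rose and 0 fell, against 8.34% and 6.62% of all 21415 probes tested. Without untreated replicate 1, which stood apart, 10 keratin genes rose, against 17.8% of all genes in that fit. Without untreated replicate 2 or without DAC replicate 2, 5 rose, against 6.35% and 6.27% of all genes.

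The promoters of the keratin genes that rose are shown beside those of 3 ductal keratin genes, because mammalian DNA methylation falls mainly on cytosines of CG pairs, and the letters show how many CG pairs each promoter holds. The RefSeq promoter table (GRCm38.p6) covers 250 bases before and 50 after each annotated start, and 33 of the 49 keratin genes have an entry. Krt16, Krt17 and Krt33a have none. Each sequence is written in the direction of transcription, and capitals mark every CG pair. These are the promoters of the 5 genes that rose and have an entry, with both annotated starts of Krt13.
Krt13 first start, chr11:100121517-100121816, minus strand: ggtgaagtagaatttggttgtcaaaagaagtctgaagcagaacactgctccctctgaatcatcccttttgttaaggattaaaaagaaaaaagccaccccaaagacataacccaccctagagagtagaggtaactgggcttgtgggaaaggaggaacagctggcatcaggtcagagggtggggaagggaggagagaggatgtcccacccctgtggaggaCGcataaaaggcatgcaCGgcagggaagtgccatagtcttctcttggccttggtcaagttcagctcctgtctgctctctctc
Krt13 second start, chr11:100120528-100120827, minus strand: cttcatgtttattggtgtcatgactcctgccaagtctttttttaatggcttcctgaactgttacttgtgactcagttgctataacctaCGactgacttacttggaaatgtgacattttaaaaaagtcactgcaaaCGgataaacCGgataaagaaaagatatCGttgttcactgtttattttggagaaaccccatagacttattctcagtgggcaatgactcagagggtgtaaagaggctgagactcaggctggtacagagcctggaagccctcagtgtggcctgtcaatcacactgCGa
Krt14, chr11:100205981-100206280, minus strand: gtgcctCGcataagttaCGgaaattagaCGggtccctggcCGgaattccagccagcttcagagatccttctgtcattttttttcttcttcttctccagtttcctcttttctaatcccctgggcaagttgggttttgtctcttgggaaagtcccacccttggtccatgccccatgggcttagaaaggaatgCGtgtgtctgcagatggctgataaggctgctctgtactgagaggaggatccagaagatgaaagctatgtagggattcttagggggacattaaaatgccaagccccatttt
Krt79, chr15:101940275-101940574, minus strand: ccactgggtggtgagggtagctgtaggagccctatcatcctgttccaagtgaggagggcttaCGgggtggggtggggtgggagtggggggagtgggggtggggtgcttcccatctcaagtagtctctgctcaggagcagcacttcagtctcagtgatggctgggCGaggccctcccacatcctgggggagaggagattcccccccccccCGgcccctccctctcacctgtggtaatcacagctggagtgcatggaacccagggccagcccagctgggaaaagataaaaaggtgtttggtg
Krt27, chr11:99351069-99351368, minus strand: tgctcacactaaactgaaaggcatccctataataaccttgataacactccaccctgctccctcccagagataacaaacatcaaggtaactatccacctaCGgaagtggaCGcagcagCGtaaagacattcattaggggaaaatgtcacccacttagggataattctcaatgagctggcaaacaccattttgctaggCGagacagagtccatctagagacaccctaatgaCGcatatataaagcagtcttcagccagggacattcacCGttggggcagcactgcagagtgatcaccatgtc
Krt36, chr11:100105577-100105876, minus strand: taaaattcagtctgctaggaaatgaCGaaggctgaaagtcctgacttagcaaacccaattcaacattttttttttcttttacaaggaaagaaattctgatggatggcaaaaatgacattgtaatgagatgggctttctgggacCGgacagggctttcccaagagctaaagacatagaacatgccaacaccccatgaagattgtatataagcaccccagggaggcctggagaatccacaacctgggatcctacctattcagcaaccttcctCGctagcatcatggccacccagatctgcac
These are the promoters of Krt7, which fell, and of Krt8 and Krt18, which did not pass the test.
Krt7, chr15:101412153-101412452, plus strand: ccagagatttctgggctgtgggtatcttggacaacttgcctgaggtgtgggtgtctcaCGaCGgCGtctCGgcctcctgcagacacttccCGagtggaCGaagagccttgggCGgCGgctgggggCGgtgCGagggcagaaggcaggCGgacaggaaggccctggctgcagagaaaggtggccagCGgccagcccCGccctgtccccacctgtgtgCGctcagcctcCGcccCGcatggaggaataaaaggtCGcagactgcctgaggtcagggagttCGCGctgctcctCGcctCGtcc
Krt8, chr15:102004293-102004592, minus strand: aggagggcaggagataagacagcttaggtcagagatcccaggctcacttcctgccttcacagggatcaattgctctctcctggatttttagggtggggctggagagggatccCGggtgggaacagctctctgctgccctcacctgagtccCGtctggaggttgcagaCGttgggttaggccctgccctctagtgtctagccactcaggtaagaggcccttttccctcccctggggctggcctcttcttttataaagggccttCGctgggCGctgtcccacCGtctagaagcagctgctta
Krt18, chr15:102027966-102028265, plus strand: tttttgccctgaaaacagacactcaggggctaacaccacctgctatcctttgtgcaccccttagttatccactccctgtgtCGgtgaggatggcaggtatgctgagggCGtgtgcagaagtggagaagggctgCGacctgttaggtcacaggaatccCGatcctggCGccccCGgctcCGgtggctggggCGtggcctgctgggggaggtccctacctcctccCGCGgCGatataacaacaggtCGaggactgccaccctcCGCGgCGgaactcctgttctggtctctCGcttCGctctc

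The 6 promoters of the genes that rose hold 2 to 6 CG pairs. Among the ductal keratin genes, those of Krt7 and Krt18 hold 21 and 17, and those of Krt8 and Krt20 hold 6 each. The Krt20 promoter is not printed above, and Krt19 has no entry. Over all 32851 promoters of the table the median is 7 and the quartiles are 3 and 20. The promoters of 20 keratin genes that were not measured hold 2 to 10, with a median of 4. Those of 7 genes that were measured and did not pass hold 2 to 17, with a median of 6. The letters TGANTCA, where N is any base, occur once in the first and 2 times in the second Krt13 promoter. As a pattern they read the same on both strands. The core that AP-1 factors are known to bind has C or G at N. The match in the first promoter is TGAATCA, which is not that core, and those in the second are TGACTCA, which is. TGANTCA with any base at N occurs in no other keratin promoter of the table and in 7.81% of all promoters. The letters GGGCGG, counted on both strands, occur in the promoters of Krt7 and Krt75 among the keratins and in 35.7% of all promoters. These matches describe the letters only, and DNA methylation was not measured.

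Across the 6 arrays, 39 of the 68 keratin probes (57.4%) were not detected on any array, against 46.2% of all probes. Detection in all that follows means a detection p under 0.05. Another 7 keratin probes were detected on 1 or 2 arrays, 22 (32.4%) on at least 3, against 47.3% of all probes, and 12 on all 6. The untreated arrays detected 15 to 18 keratin probes and the DAC arrays 22 to 24, with 16, 15 and 18 on untreated replicates 1 to 3 and 23, 22 and 24 on DAC replicates 1 to 3. Over the whole array the numbers of detected probes overlapped between the groups, from 19890 to 21452 and from 20615 to 21462. Probes of Krt14, Krt16, Krt17 and Krt27 were detected on no untreated array and on all 3 DAC arrays. They are 5.88% of the keratin probes, against 0.866% of all probes. No keratin probe showed the reverse, against 0.205% of all probes.

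**Figure D1:**
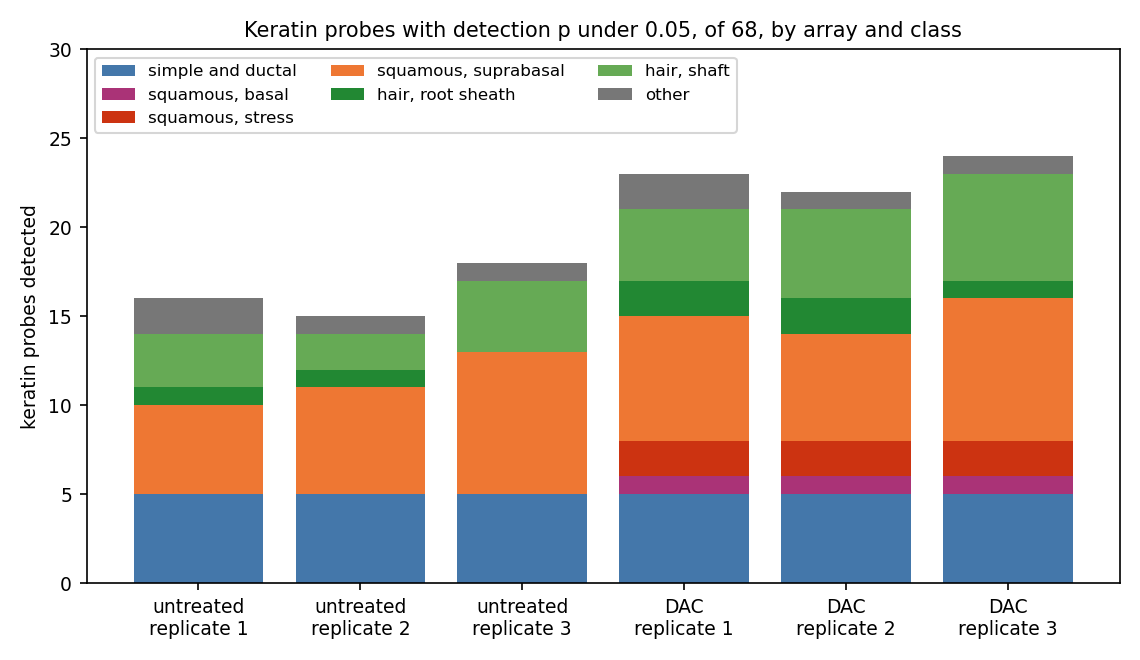
Number of keratin probes, of 68, with a detection p under 0.05 on each array (vertical axis), stacked by keratin class, for 3 untreated and 3 DAC arrays. The untreated bars reach 15 to 18 and the DAC bars 22 to 24, and the classes of basal and stress keratins appear on the DAC arrays only.

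The mean bead intensity per array lay between 313 and 460, with a median of 44 or 45 beads behind each probe. Untreated replicate 1 had the highest mean and stood apart from the other untreated arrays, with squared differences 21.9 and 25.9 times the bead variance. From DAC replicates 1 to 3 it differed by 27.0, 16.6 and 17.5 times, so it lay no nearer its own group than DAC replicates 2 and 3. Pairs of untreated replicate 2 or 3 with a DAC array differed by 11.1 to 22.9 times. Untreated replicates 2 and 3 differed by 1.71 times the bead variance, and pairs of DAC arrays by 3.55 to 8.22 times. The number of arrays limits the precision. Of 10 ductal and glandular markers other than keratins, 9 were measured, with Cdh1 at 10.09 ± 0.07 and Sox9 at 12.26 ± 0.03 without drug (log2 signal, SD, n = 3), while no probe of Epcam was detected on any array. In this list Cldn4 and Spint1 rose and Muc1 fell. Of all genes tested 10.1% rose and 7.21% fell, the shares to set beside the counts of every marker list here. Of 11 fibroblast markers 7, Col1a2, Col3a1, Dcn, Lum, Pdgfrb, Thy1 and Postn, were not detected on any array. No Fap probe was detected on an untreated array or on more than 2 DAC arrays, too few to be measured. Of the 3 measured, Col1a1 and Acta2 rose, and the summed signal went from 333 to 370 without drug to 1252 to 1705 with DAC. Of 8 leukocyte markers 4 were measured, of which 2 rose and 1 fell, with summed signals of 1602 to 1657 and 1344 to 1445. Laptm5, detected on no untreated array, was at least 3.93-fold higher. Its adjusted p of 3.17e-05 (limma) is that of the fitted log2 difference of 2.45 from untreated values at background, not of the bound. Fcgr3 rose by 1.24 ± 0.13 on the log2 scale, and Cd14 fell by 0.60 ± 0.11, so the sum ran against 2 of the 3 that changed. Ptprc, Adgre1 and Itgam were not detected, and no Csf1r probe was detected on an untreated array or on more than 1 DAC array. Of 6 endothelial markers Esam alone was measured, and it rose (summed signal 29.1 to 33.6 and 60.7 to 80.0), while Pecam1, Cdh5, Kdr, Tek and Emcn were not detected. Of 3 mesothelial markers on the array 2 were measured, of 7 acinar and endocrine markers 3, and of 28 skin appendage genes, mostly keratin-associated protein genes, 2, and 0 of these passed. The part of these cell types in the keratin values was not tested. In bulk RNA, more cells with a transcript and more transcript per cell cannot be told apart.

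Among the ductal keratins, all 5 genes were detected on all 6 arrays, and 0 rose and 1 fell, against 10.1% and 7.21% of all genes. Signals are given on the log2 scale after background correction and quantile normalization, and a probe's signal can be set against itself between arrays, not against another probe. Krt8 encodes the type II keratin of simple epithelia and measured 13.04, 13.43 and 13.41 in untreated replicates 1 to 3 and 13.80, 13.68 and 13.67 in DAC replicates 1 to 3. The DAC values all lay above the untreated ones, but the difference of 0.42 ± 0.14 (log2 fold change, SE, n = 3 per group) did not pass (adjusted p = 0.0703, limma). It did pass with an offset of 50, without background correction and with a trended, robust variance (adjusted p down to 0.0250). Krt18, its type I partner, measured 13.25, 13.56 and 13.52 without drug and 13.42, 13.20 and 13.32 with it. The groups overlapped, and the difference was -0.13 ± 0.13 (adjusted p = 0.529, limma).

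Krt19 encodes the smallest type I keratin, a standard marker of the pancreatic duct. Its signal was 12.24, 12.37 and 12.34 in untreated and 12.56, 12.21 and 12.22 in DAC replicates, with a difference of 0.01 ± 0.13 (adjusted p = 0.962, limma). DAC replicate 1 was the highest of the 6, and the other DAC values lay just below all untreated ones. Krt20, a type I keratin of intestinal and urothelial lining, measured 9.82, 9.49 and 9.53 without drug and 9.92, 10.04 and 10.09 with it. These groups did not overlap, and the difference of 0.40 ± 0.13 did not pass (adjusted p = 0.0672, limma), although it did without untreated replicate 1, the highest of the untreated arrays (0.51, adjusted p = 0.00989). It also passed under the same 3 settings as Krt8 (adjusted p = 0.0443 to 0.0488).

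Krt7, a type II keratin of ducts, was the keratin that fell. It measured 10.74, 10.93 and 10.95 in untreated and 10.61, 10.33 and 10.28 in DAC replicates. All DAC values lay below all untreated ones, as in 18.7% of all genes. The log2 fold change was -0.47 ± 0.13 (adjusted p = 0.0448, limma). The call was lost without untreated replicate 2 or 3 and without DAC replicate 2 or 3 (adjusted p of at least 0.15), and in the fit over all probes in place of genes (adjusted p = 0.0545). A further probe of Krt8, under the old name KRT2-8, was not detected on any array.

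**Figure D2:**
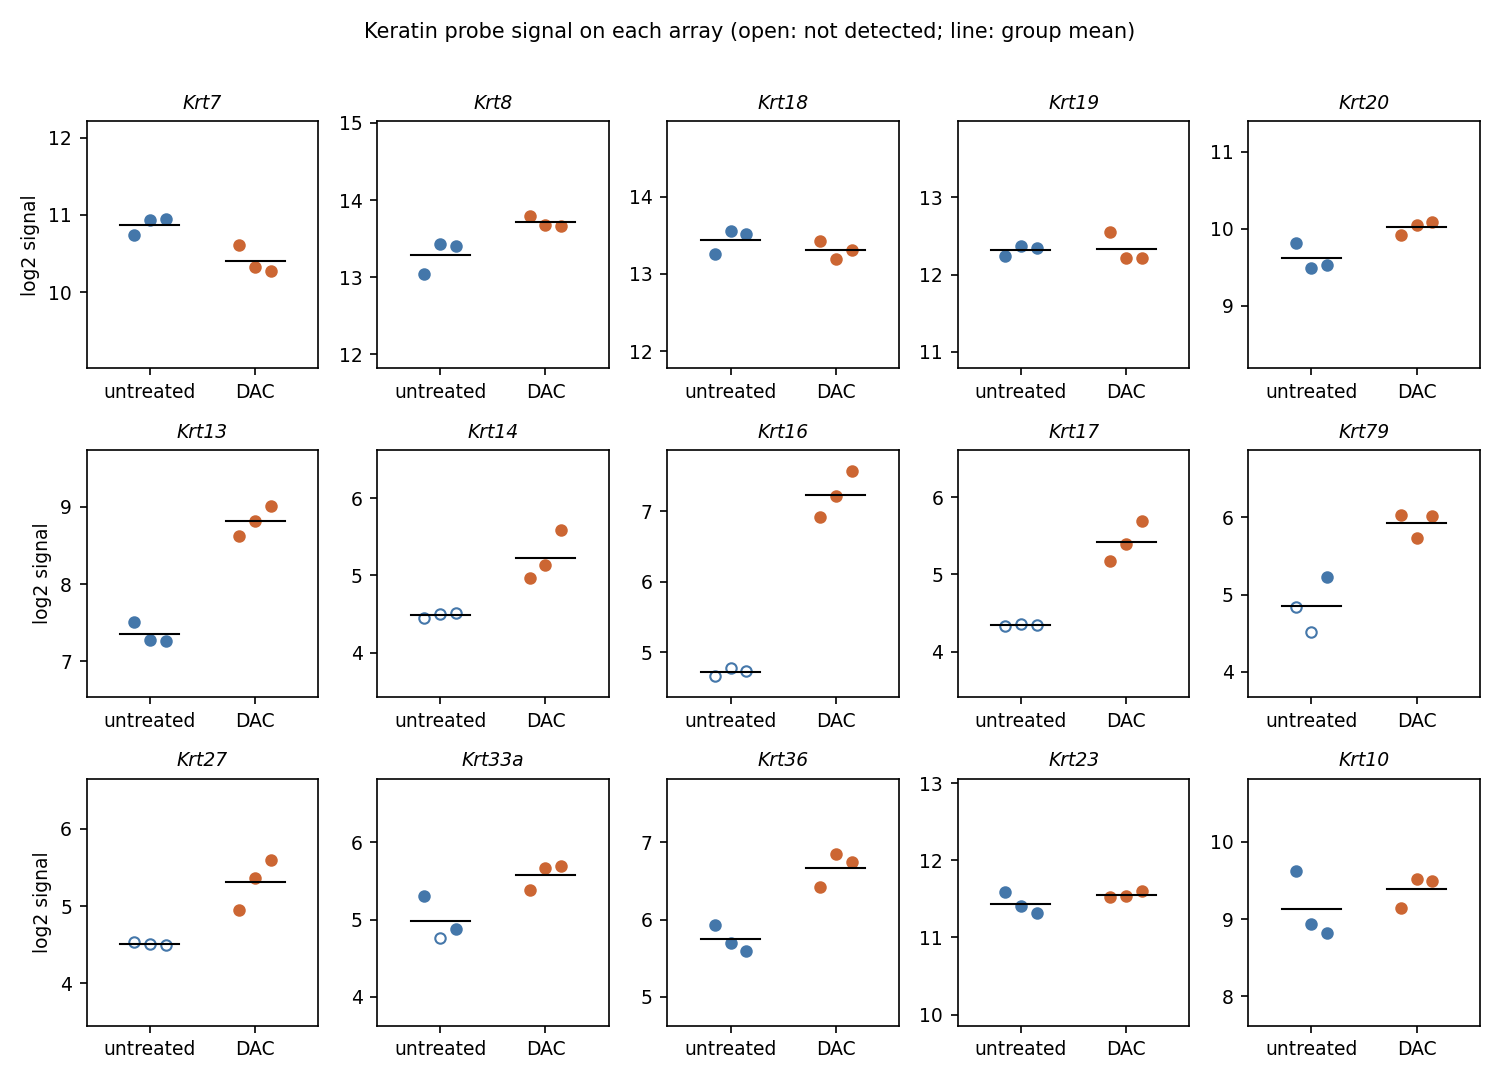
Log2 signal of 15 keratin genes on each array, with untreated replicates 1 to 3 in blue and DAC replicates 1 to 3 in orange from left to right, open points for arrays on which the probe was not detected, and a line at each group mean. Every panel spans at least 3.2 log2 units, and Krt16 moved from a mean of 4.72 to 7.23 while Krt19 stayed at 12.32 and 12.33.

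Among squamous keratins, 9 of 19 genes on the array were measured and 5 rose, against 10.1% of all genes tested. Krt14, Krt16 and Krt17, among those 5, were measured through the DAC arrays only. Krt16, a type I keratin of wounded and hyperproliferative epidermis, had the largest log2 fold change of the 19 measured keratin genes. Its bead intensity before any correction was 61.7, 56.9 and 57.4 on untreated arrays, where it was not detected, and 165.1, 181.0 and 181.7 on DAC arrays. On the log2 scale these became 4.66, 4.77 and 4.73 against 6.92, 7.22 and 7.57. All 3 DAC values lay more than 2 log2 units above the untreated values. Because no untreated array detected it, Krt16 is given as at least 5.31-fold higher with DAC. Its detection p on untreated replicates 1 to 3 was 0.139, 0.0502 and 0.0588, the last 2 close to the cut of 0.05. The adjusted p of 3.69e-05 (limma) is that of its fitted log2 difference of 2.51, not of this bound. A bound of this kind sets the mean DAC signal against the higher, on each untreated array, of the probe's own signal and the lowest signal of any detected probe. Genes given as bounds entered the fit because all 3 DAC arrays detected them, and their untreated spread is that of background. Their adjusted p therefore describes the fitted difference and tests no measured untreated level.

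Krt17, the type I keratin that accompanies Krt16 in wounds, gave bead intensities of 48.1, 45.2 and 45.4 without drug and 72.7, 76.3 and 74.8 with DAC. Its log2 signal went from 4.33, 4.35 and 4.34, not detected, to 5.17, 5.40 and 5.70. It was at least 1.51-fold higher (adjusted p = 0.00196 for the fitted difference of 1.08, limma). Krt14, the type I keratin of the basal layer, measured 4.45, 4.50 and 4.52, not detected, without drug and 4.97, 5.13 and 5.59 with it. It was at least 1.33-fold higher (adjusted p = 0.0192 for the fitted difference of 0.74, limma). The groups of both genes did not overlap, but their untreated values lie at background and their spread is not that of a measured level. The call on Krt14 was lost without untreated replicate 2 or 3 or DAC replicate 2 and with an offset of 50 (adjusted p = 0.0548 to 0.0610). The transcripts of Krt14, Krt16 and Krt17 are close relatives, the probe sequences were not used here, and a probe of one of them may bind the transcript of another.

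Krt13, the type I keratin of the upper layers of oral and oesophageal lining, was detected on all 6 arrays. Its bead intensity was 254.1, 180.2 and 185.6 without drug and 446.6, 484.3 and 451.6 with DAC. The log2 signal rose from 7.50, 7.28 and 7.26 to 8.62, 8.82 and 9.01. The groups were more than 1 log2 unit apart, and the log2 fold change was 1.47 ± 0.14, or 2.77-fold (adjusted p = 2.82e-04, limma). A further Krt13 probe, under the old name KRT1-13, was not detected on any array. Krt79, a type II keratin found in the mouse in the upper hair follicle and sebaceous duct, was counted here with the squamous keratins, not the hair keratins. Its signal was 4.84, 4.51 and 5.22 without drug, detected on 1 array, and 6.03, 5.73 and 6.02 with it. The groups were separate although the untreated values spread more widely, and the log2 fold change was 1.07 ± 0.19 (adjusted p = 0.00662, limma). Untreated replicates 1 and 2 did not detect Krt79, so it passed the filter with the help of the DAC arrays and this fold change rests partly on background values.

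The 4 other measured squamous keratin genes did not pass. Krt10, the type I keratin of suprabasal epidermis, measured 9.62, 8.94 and 8.82 without drug and 9.14, 9.52 and 9.50 with it, so untreated replicate 1 was the highest of all 6 arrays. Its difference was 0.26 ± 0.22 (adjusted p = 0.456, limma), against 0.51 without untreated replicate 1 (adjusted p = 0.0264). Krt1, its type II partner, was detected on 2 untreated arrays and 1 DAC array, at -0.19 ± 0.15. The corneal keratin gene Krt12 had 2 probes detected on all arrays, at 0.24 ± 0.12 and 0.04 ± 0.22. Krt80, a type II keratin, was represented by its brightest probe, which carries the clone name 1200016G03RIK and is not a member, at -0.05 ± 0.19. The member probe named KRT80 gave -0.21 ± 0.19.

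The type II partners of the squamous type I keratins that rose were not measured. Both probes of Krt6a, both of Krt6b and the probe of Krt5 were below background on all 6 arrays, with mean log2 signals of 4.24 to 4.49 in the DAC group. Krt4, the partner of Krt13, was detected on DAC replicate 1 alone, with mean log2 signals of 4.55 and 4.71. Type I genes made up 7 of the 8 that rose, out of 13 type I genes measured of 28 on the array, and Krt79 was the type II gene among 6 measured of 21. Median log2 fold changes were 0.60 for the type I and -0.09 for the type II genes measured, against -0.02 for all genes tested. Krt14, Krt16, Krt17 and Krt27, measured through the DAC arrays only, are all type I. Without them 3 of 9 type I genes rose and the median was 0.26. Of all genes tested 10.1% rose. The difference between the types was not tested.

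**Figure D3:**
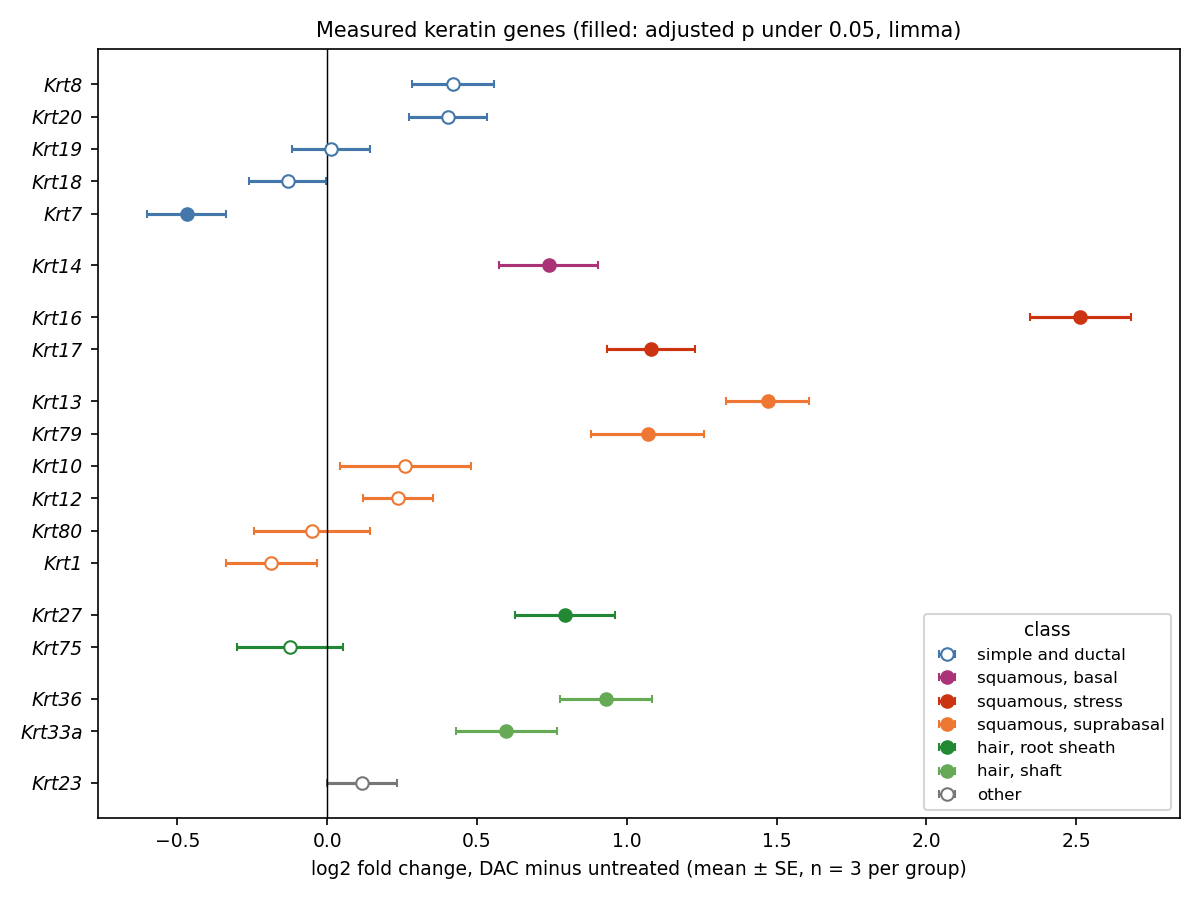
Log2 fold change of the 19 measured keratin genes, DAC minus untreated, with SE (n = 3 per group), grouped and coloured by class, with filled points for an adjusted p under 0.05 in the limma fit over all genes. Krt16 is plotted at its fitted value of 2.51, the ductal genes lie between -0.47 and 0.42, and the filled squamous and hair genes lie between 0.60 and 2.51. The fitted values of Krt14, Krt16, Krt17 and Krt27, which no untreated array detected, exceed their bounds.

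Among hair keratins, 4 of 22 genes on the array were measured and 3 rose, against 10.1% of all genes tested. Krt27, among those 3, was measured through the DAC arrays only. Krt36, a type I keratin of hair and of the filiform papillae of the tongue, had 3 probes. The brightest measured 5.93, 5.70 and 5.60 in untreated and 6.42, 6.85 and 6.75 in DAC replicates, and was detected on all 6 arrays. These groups were separate, and the log2 fold change was 0.93 ± 0.15, or 1.91-fold (adjusted p = 0.00487, limma). Its other probes, at 0.40 ± 0.12 under the name KRT1-5 and 0.18 ± 0.14, did not pass (adjusted p = 0.0689 and 0.442, limma over all probes). Krt27, a type I keratin of the inner root sheath, measured 4.53, 4.51 and 4.50, not detected, without drug and 4.95, 5.37 and 5.60 with it. It was at least 1.40-fold higher (adjusted p = 0.0145 for the fitted difference of 0.79, limma). The call was lost without untreated replicate 2 or DAC replicate 2 (adjusted p = 0.0514 and 0.0697). The untreated values of Krt27 lie at background, and their spread is not that of a measured level.

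Krt33a, a type I keratin of the hair shaft, measured 5.31, 4.76 and 4.88 without drug and 5.39, 5.67 and 5.69 with it. The groups did not overlap, but untreated replicate 1 and DAC replicate 1 were close. Its log2 fold change of 0.60 ± 0.17 passed narrowly (adjusted p = 0.0444, limma). The call held without untreated replicate 1 and was lost without each of the other arrays in turn (adjusted p = 0.0501 to 0.159), with other background settings, and in the fit over all probes (adjusted p = 0.0535). Krt75, a type II keratin of the companion layer around the hair, had a single measured probe among 3, at -0.12 ± 0.18. The other 18 hair keratin genes were not measured, and 15 of them had no probe detected on any array, among them Krt25, Krt31, Krt35, Krt71 and Krt81.

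Of the remaining keratins, Krt23, a type I keratin known in several glandular epithelia, measured 11.59, 11.40 and 11.32 without drug and 11.52, 11.54 and 11.60 with it. The groups overlapped, at 0.12 ± 0.12 (adjusted p = 0.535, limma). Krt42 and Krt222 were not detected. The 46 keratin probes that were not measured had log2 differences from -0.21 to 0.32, with a median of 0.01. The highest of these was a Krt78 probe detected on DAC replicate 3 alone. Of the 7 probes detected on 1 or 2 arrays, 1 each of Krt4, Krt34, Krt78 and Krt82 was detected on 1 DAC array alone. Their detection p on that array was 0.031 to 0.047. A Krt86 probe and KRT2-PS1 were detected on 1 array of each group, and another Krt78 probe on 1 untreated array alone. The share of all probes with these patterns was not counted.

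In gene order on chromosome 11, 7 of 12 measured keratin genes rose and 0 fell, against 10.1% and 7.21% of all genes tested. Without the 4 that only the DAC arrays detected, 3 of 8 rose. Krt14, Krt16 and Krt17, which follow each other in the order of keratin genes, are all among those 4, while Krt36 and Krt13 are also adjacent. Krt19 lies between these groups of genes and did not pass, at 0.01 ± 0.13, and Krt10, Krt12, Krt20 and Krt23, which follow each other, were at 0.12 to 0.40 and did not pass. On chromosome 15, 1 of 7 measured genes rose, Krt79, and 1 fell, Krt7, against the same shares of all genes. The neighbours of Krt79 in the order of keratin genes, Krt4 and Krt78, were not measured. In all, 11 of the 19 measured keratin genes had every DAC value above every untreated value, against 17.4% of all genes, and 1 had the reverse, against 18.7%. Without the 4 genes that only the DAC arrays detected, whose separation the filter largely fixed, 7 of 15 lay wholly above.

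**Figure D4:**
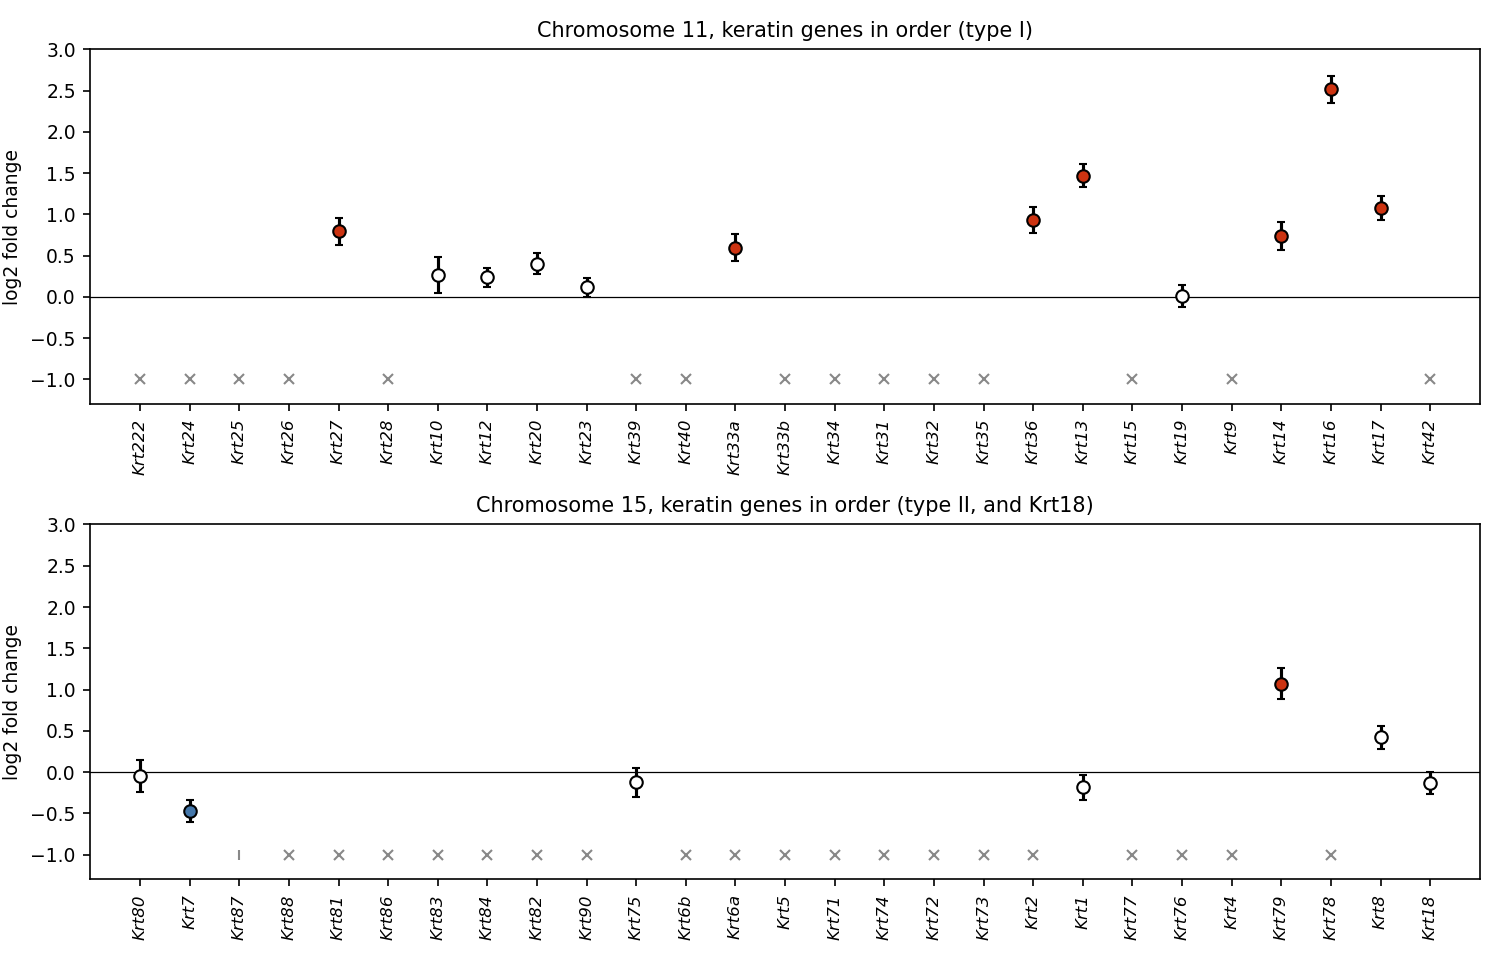
Log2 fold change of each keratin gene, DAC minus untreated, with SE, in the order of the genes on chromosome 11 and chromosome 15 in GRCm38.p6, evenly spaced. Red points rose and the blue point fell at an adjusted p under 0.05, open points did not pass, crosses mark genes not measured and the tick a gene with no probe. Red points on chromosome 11 include the run of Krt14, Krt16 and Krt17 at 0.74, 2.51 and 1.08, while Krt19 stands at 0.01.

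The filament network beyond the keratins was read from lists of related genes in the same fit, in which 10.1% of all genes rose and 7.21% fell. Of 16 desmosome genes, whose products anchor keratin filaments at cell contacts, 7 were measured, 2 rose and 1 fell. The desmoplakin gene Dsp rose by 0.68 ± 0.13 (log2 fold change, SE, n = 3 per group; adjusted p = 0.00963, limma). The desmoglein gene Dsg2 rose by 0.73 ± 0.14 (adjusted p = 0.00823), but averaged over its measured probes it was at 0.17 and did not pass. Jup, the gene of plakoglobin, fell by 0.78 ± 0.13 (adjusted p = 0.00534). The squamous desmosome genes Dsg1a, Dsg3, Dsc1 and Dsc3 were not detected on any array. Pkp1, detected on 1 untreated and 3 DAC arrays, did not pass, at 0.05 ± 0.13. Of 9 hemidesmosome and plakin genes 8 were measured, 0 rose and 1 fell. This was the dystonin gene Dst, at -0.39 ± 0.11 (adjusted p = 0.0422), and averaged over its measured probes it was at 0.0041. Its call was lost under 8 further alternatives, among them the omission of each array other than untreated replicate 1.

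Of 14 other intermediate filament genes 9 were measured, 3 rose and 0 fell. The nestin gene Nes rose by 0.90 ± 0.12 (adjusted p = 0.00198, limma) and the nuclear lamina gene Lmnb1 by 0.93 ± 0.12 (adjusted p = 0.00140). The neuronal filament gene Prph, detected on no untreated array, was at least 1.77-fold higher. Its adjusted p of 0.00104 (limma) is that of the fitted difference of 1.22 from untreated values at background, not of the bound. Of 19 regulators of keratin genes or filaments 8 were measured, 1 rose and 1 fell, shares near the 10.1% and 7.21% of all genes. The epithelial factor gene Grhl2 rose by 2.62 ± 0.16 (adjusted p = 2.26e-05), and Pias1, a SUMO ligase gene, fell by 0.44 ± 0.11 (adjusted p = 0.0310), a call lost under 7 of 17 alternatives, 4 of them omissions of a single array (adjusted p up to 0.141). No probe of Trp63, the master regulator of squamous epithelium, or of the hair keratin regulators Foxn1 and Hoxc13 was detected on any array. Klf4, Klf5 and Dlx3 of the same list were detected on all 6 arrays and did not pass. Their mean log2 signals were 9.23, 10.23 and 6.31 without drug and 9.57, 10.21 and 6.66 with it. All DAC values of Klf4 and Dlx3 lay above all untreated ones, as in 17.4% of all genes. Of 12 genes of the cornified envelope, the protein shell of terminally differentiated squamous cells, 6 were measured, 2 rose and 0 fell, against 10.1% and 7.21% of all genes. Sprr1b rose by 1.45 ± 0.13 (adjusted p = 1.87e-04) and Cdsn by 0.57 ± 0.14 (adjusted p = 0.0282). The call on Cdsn was lost under 9 of 17 alternatives, among them the omission of each array other than untreated replicate 1 (adjusted p up to 0.266). Sprr1a, Lor, Ivl and Sbsn were detected on all 6 arrays and did not pass. Their mean log2 signals were 11.33, 7.38, 6.30 and 6.42 without drug and 11.24, 7.18, 6.45 and 5.98 with it. Flg, Tgm3, Sprr3 and Krtdap were not detected. Probes of Cnfn and Tgm1 were detected on no untreated array and on at most 2 and 1 DAC arrays, too few to be measured. Across the desmosome, hemidesmosome and other filament lists 5 genes rose and 2 fell of 24 measured, against 10.1% and 7.21% of all genes. Without untreated replicate 1, 11 rose and 4 fell, against 17.8% and 15.3% of all genes in that fit.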

How the data were processed

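Total RNA from 3 untreated and 3 DAC samples was labelled with a MessageAmp kit for Illumina arrays, per the labels' protocols. Per the file headers, the authors deposited for each probe the mean bead intensity, its standard error over beads, the number (count) of beads and a detection p-value, as exported. Intensities are linear and neither background-subtracted nor scaled. The reference behind the detection p-value and the scanner software are not given in the sources used here. A further table of intensity values, which the authors deposited after processing of their own, has probes that are unnamed here and served only for counts of probes.

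Background was corrected with neqc in limma 3.58.1 (R 4.3.3), with negative controls inferred from the detection p-values, 16 added, quantile normalization and a log2 scale. Probes with a detection p under 0.05 on at least 3 arrays were kept (21415). Array names were updated through RefSeq (GRCm38.p6): 16223 matched a symbol, 5683 a synonym of a single gene and 8948 neither. The brightest probe over all 6 arrays stood for a gene, giving 14154 genes. Groups were compared with lmFit and eBayes without covariates, and Benjamini-Hochberg adjustment covered all genes (or all kept probes). The fit was first tested on simulated data. Alternatives were other background, normalization, filter, probe and variance settings, a replicate block and leaving out arrays. Every measured keratin gene is named, and of each other list the called members with the lowest adjusted p. Keratin classes and gene lists, like the members, were chosen with earlier results of these data known.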

Additional observations from a re-analysis of the deposited data

How the results depend on the processing

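Krt13, Krt16, Krt17, Krt36 and Krt79 kept their direction and their call under every alternative that measured them. Krt14, Krt27, Krt33a and Krt7 lost theirs under 6, 3, 11 and 8 alternatives. Keratin genes called higher numbered 8 as reported (10.1% of all genes) and 5 to 10 when single arrays were left out (6.27% to 17.8%). With detection required on all 6 arrays, which leaves fewer genes, they numbered 2 (9.01% of all genes). With the replicate block they numbered 5 (4.92%). Keratin genes called lower numbered 1 as reported (7.21% of all genes) and 0 or 1 when single arrays were left out (2.42% to 15.3%). They numbered 0 with cyclic loess (5.56% of all genes) and with no filter on dim probes (3.28%). They also numbered 0 with the replicate block (1.25%) and once untreated replicates 2 and 3 were averaged (2.76%). In the fit over all probes, 7 of 22 keratin probes were called higher (8.34% of all probes) and 0 lower (6.62% of all probes). These became 5 to 10 and 0 or 1 when single arrays were left out (994 to 3053 and 369 to 3310 of all 21415 probes). With detection on all 6 arrays 2 keratin probes were called higher (1378 of 18117 probes), and with the replicate block 4 (707 of 21415). With an offset of 50, no background correction, median scaling or a trended, robust variance, 1 keratin probe was called lower. Those fits called 1396 to 1544 of all 21415 probes lower. Filament, desmosome and hemidesmosome genes called higher numbered 5 to 11 and called lower 1 to 4 when single arrays were left out. Those fits called 6.27% to 17.8% of all genes higher and 2.42% to 15.3% lower. The 2 called lower on these lists became 1 with detection on all 6 arrays, the mean of all probes or median scaling. The replicate block and untreated replicates 2 and 3 averaged also gave 1. These alternatives called 1.25% to 8.32% of all genes lower. The cause of these shifts was not tested.

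Reversed signs were all of values that did not pass, save 1. Krt19 was at -0.10 with median scaling and at -0.10 to 0.070 when single arrays were left out. Krt80 was at 0.016 with cyclic loess, at 0.028 once untreated replicates 2 and 3 were averaged, and at -0.21 to 0.11 when single arrays were left out. Krt75 was at -0.25 to 0.051 when single arrays were left out, above 0 without untreated replicate 1. Dst, called lower as reported, was at 0.0041 over the mean of its probes. Under median scaling the median of all genes was -0.12 in place of -0.02 on the log2 scale. Under it 7 keratin genes were called higher and 1 lower, against 6.41% and 6.83% of all genes.

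Over all genes, 1429 were called higher and 1021 lower, against 697 and 177 with the replicate block, 907 and 967 with median scaling, 929 and 391 with untreated replicates 2 and 3 averaged, and 888 to 2517 and 343 to 2162 when single arrays were left out. The authors' deposited value table, floored at 0 with 16 added before log2, gave 1117 and 723 probes, against 1785 and 1417. The labels letter the replicates A, B and C in both groups, and whether equal letters mark paired samples is not known here. Deviations of same-numbered arrays from their group means correlated at -0.61, -0.11 and -0.48, and those of differently numbered arrays at -0.46 to 0.56. Deviations within a group of 3 sum to 0, so these correlations cannot decide whether the samples are paired. The block took the calls on Krt14 (adjusted p = 0.0629), Krt27 (0.0600), Krt33a (0.161) and Krt7 (0.184). Most hair and squamous keratin probes lie at or near background, where normalized differences understate change and the offset sets their size. Krt17, for example, was at 0.51 with an offset of 50 against 1.08.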

Other observations

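Probes of keratin genes also sit on the array under 7 names that do not start with KRT and are not members. Both further Krt80 probes and those of Krt20, Krt72, Krt76, Krt88 and Krt90 carry clone or expressed-tag names. A single one of the 7, 1200016G03RIK of Krt80, was measured. The other Krt80 probe, 2310041I20RIK, was detected on 2 untreated arrays and 0 DAC arrays, and the Krt20 probe 9030623C06RIK was detected on no array while the member probe of Krt20 was detected on all 6. The bead intensity of Krt16, Krt17 and Krt14 on the 3 DAC arrays spanned 165.1 to 181.7, 72.7 to 76.3 and 67.0 to 72.2, while their normalized log2 signals were highest on DAC replicate 3, the DAC array with the lowest mean bead intensity (313).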
